A study of Mus musculus with 8 samples.

Results

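Genes of the centrosome and the primary cilium were examined in bone marrow-derived macrophages (BMDM) after exposure to sphingosine d18:1, So(d18:1). The genes were chosen by name: protein-coding genes whose symbol is Cep, Ift or Bbs followed by a number. By this rule 58 of the 55357 genes in the count table were members, with 36 Cep, 14 Ift and 8 Bbs genes spread over 19 chromosomes. No measured value enters the rule, but the family was put forward with results of this comparison known, so its counts and medians are given as a description.

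The cells were grown in macrophage colony-stimulating factor (M-CSF) from the marrow of wild-type C57BL/6J mice. Control cultures received methanol, the vehicle, for 6 h, and the So(d18:1) cultures received 2 μM So(d18:1) in methanol for 6 h. Sphingosine is the free long-chain base of the sphingolipids. Polyadenylated RNA was sequenced from 4 libraries per group. The paper's text places the cells of this experiment, control and So(d18:1) alike, under inflammatory stimulation, whereas the labels name no stimulus, so whether both groups carried one is not settled here. The labels do not give the age or sex of the mice and do not tie the libraries to separate mice, so p-values measure the spread between these libraries. In such bulk samples fewer cells of a type and less RNA per cell cannot be told apart.

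The centrosome is a pair of centrioles in a protein matrix and organizes microtubules. In many resting cells the older centriole docks at the cell surface through its distal appendages and grows a primary cilium, an antenna for signals such as Hedgehog. Intraflagellar transport (IFT) trains carry cargo along it: the IFT-B complex works with kinesin towards the tip, the IFT-A complex works with dynein on the way back, and the BBSome, built of Bbs proteins, couples membrane proteins to the trains. Cilium genes often carry in their promoter an X-box, the binding site of RFX transcription factors. Blood cells are mostly described as lacking a primary cilium, and many of these genes also act at centrosomes and in vesicle traffic.

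The promoters are shown first because a letter pattern recurs in some members. RefSeq promoters of GRCm38.p6, running from 250 bases before to 50 bases after each start, were found for 49 of the 58 members. The X-box was searched on both strands as GTTNCC followed by GGNAAC with 0 to 3 bases between them. It occurred in 4 of the 49 members (8.16%), against 253 of all 27025 genes of the promoter table (0.936%) and 1.02% of those with enough counts to be tested. The 4 matches are printed with their flanks, 5′ to 3′ on the strand of the gene, and the X-box is in capitals.
Ift57, chr16:49699226-49699254: gccctgcgGTTGCCTGGTAACggtgggga
Cep19, chr16:32099803-32099832: agccttctGTTGCCTTGGGAACgatcctcg
Bbs7, chr3:36613489-36613518: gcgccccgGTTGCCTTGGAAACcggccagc
Cep41, chr6:30693859-30693887: gtcccgcGTTGCCCTTGGCAACcattgag
Ift57 and Cep19 lie on the forward strand, and Bbs7 and Cep41 on the reverse strand. The first base of the match lay 60 bases before the RefSeq start in Ift57, 121 before it in Bbs7 and 131 before it in Cep41, while in Cep19 it was base 23 of the transcript by RefSeq. All of these begin with GTTGCC, the core letters of the site, which on its own occurred in 16 of the 49 members (32.7%) and in 14.1% of all genes of the table. This core is part of each X-box printed, so both counts share these 4 genes. Ift57 held a second GTTGCC, 87 bases before the RefSeq start. The 150 bases before its GENCODE gene start are shown for that reason, with the second core in capitals. The X-box of Ift57 lies after this start, within the GENCODE gene.
Ift57, chr16:49699083-49699232: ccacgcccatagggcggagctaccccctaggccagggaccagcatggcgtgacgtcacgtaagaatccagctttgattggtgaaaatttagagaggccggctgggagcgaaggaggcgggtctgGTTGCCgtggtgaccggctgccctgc
Of the 4 X-box genes, Ift57 and Cep19 rose after So(d18:1), whereas Bbs7 (log2 fold change −0.05) and Cep41 (−0.27) did not pass the test. Of the other members that passed it, Ift46 held neither the X-box nor the core GTTGCC, and no promoter was found for Ift80. A match of letters is a description and not evidence of binding.

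Other motifs were searched as well. The E2F element TTCCCGCC or TTTCCCGC occurred in 6 of the 49 members (12.2%) and in 3.15% of all genes of the table (5.96% of those tested). The 6 members were Cep112, Cep128, Cep152, Cep295, Cep44 and Cep70, and they were named after the search. The CHR element TTTGAA, known from genes expressed in mitosis, occurred in 9 of the 49 members (18.4%), which included Cep55, in 20.2% of all genes of the table and in 14.7% of those tested.

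Of the 58 members, 56 passed the filter on low counts and were tested together with all 14514 genes that passed it. Differences are log2 fold changes of So(d18:1) over control from edgeR's quasi-likelihood test, with Benjamini-Hochberg adjustment over the 14514 genes. Levels are CPM, counts relative to the library total after TMM scaling, and are compared between genes only as TPM, which also divides by gene length. At an adjusted p under 0.05, 4 members were called and all were higher: Ift57, Ift46, Cep19 and Ift80. In the background 8.94% of all tested genes were called, and 3.87% were called as higher, beside 7.14% of the tested members. At an unadjusted p under 0.05, 13 members (23.2%) were higher and 0 were lower, against 11.4% higher among all tested genes. The changes were small: the median log2 fold change of the 56 was 0.088, against 0.0036 over all tested genes, and without control 3 the median of the members was 0.047. A positive value was found for 39 members (69.6%) and for 50.9% of all tested genes. By the threshold in the study's methods, an unadjusted p under 0.05 with at least a 1.5-fold change, 1 member, Cep55, passed, and 3.89% of all tested genes did.

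**Figure D1:**
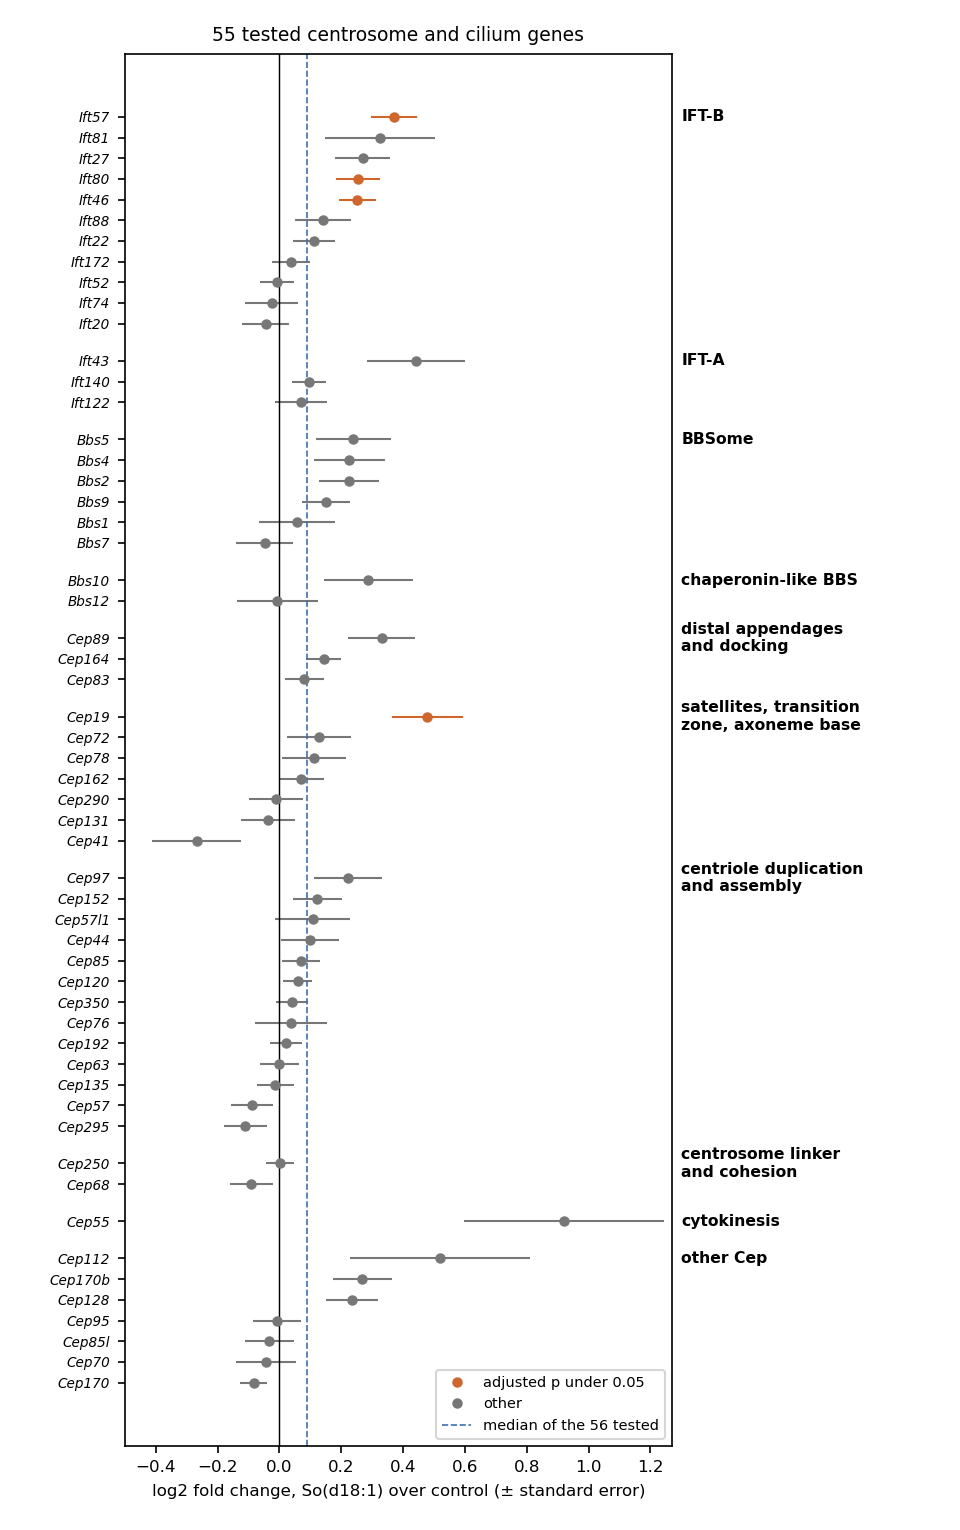
Log2 fold change of So(d18:1) over control for 55 of the 56 tested members, grouped by role, with bars for the standard error of the edgeR fit, orange for an adjusted p under 0.05 and a dashed line at the median of all tested members, 0.088. Most points lie between −0.1 and 0.5, the 4 orange points are all positive, and Cep55 at 0.92 has a long bar.

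The groups of libraries did not overlap for 7 members, all higher in So(d18:1) (12.5% of those tested, background 7.14%), and 0 members were lower without overlap (background 7.87%). Among these were Ift57, Ift46, Ift80, Ift27, Cep164 and Bbs9. The summed level of all members ran from 1646 to 1838 CPM in control libraries and from 1771 to 1860 CPM in So(d18:1) libraries, so the sums overlapped. Control 3 was the lowest of the 8 libraries for 26 of the 56 tested members, and So(d18:1) 2 was the highest for 16.

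The anterograde transport complex, IFT-B, held 3 of the 4 called genes. They were 27.3% of its tested members, against 3.87% called as higher among all tested genes. Members are only the subunits with an Ift symbol. The complex also has the tested subunits Ttc26, Ttc30a1, Ttc30b, Traf3ip1, Cluap1 and Hspb11, and edgeR called none of them. Of its 11 members, 8 had a positive and 3 a negative log2 fold change, with a median of 0.14. The summed level of the 11 members was 272 to 306 CPM in control and 314 to 320 CPM in So(d18:1) libraries, and the 2 ranges did not overlap. Ift57 (ENSMUSG00000032965, chromosome 16, 49699233 to 49765126), a peripheral IFT-B subunit, was measured at 15.7, 16.9, 15.8 and 14.7 CPM in the control libraries and at 19.4, 20.3, 21.2 and 20.9 CPM in the So(d18:1) libraries. Every So(d18:1) library was above every control library. Ift57 rose from 15.8 ± 0.908 to 20.4 ± 0.782 CPM (mean ± SD, n = 4), a log2 fold change of 0.37 with a standard error of 0.075 (edgeR, adjusted p = 0.0027). Of its exon bases 7.86% overlap Gm15518 on the other strand, and whether counting used strand is not stated in the sources used here.

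Ift46 (chromosome 9, 44767908 to 44793447), a core IFT-B subunit involved in carrying dynein arms, had 41.2, 42.4, 36.8 and 42.3 CPM in control and 47.3, 51.3, 45.4 and 49.7 CPM in So(d18:1) libraries. The groups did not overlap, with control 3 the lowest. Ift46 rose by 0.25 ± 0.060 on the log2 scale (standard error, edgeR, adjusted p = 0.0098). Ift57 and Ift46 were called under every alternative setting run. Ift80 (chromosome 3, 68892499 to 69004570), a peripheral IFT-B subunit mutated in a skeletal ciliopathy, had 25.1, 26.1, 21.9 and 23.7 CPM in control and 28.1, 31.6, 28.4 and 27.3 CPM in So(d18:1) libraries. Its lowest So(d18:1) library stood a little above its highest control library. Ift80 rose by 0.25 ± 0.071 on the log2 scale (adjusted p = 0.0286), and the call was lost without control 3 (adjusted p = 0.0919), without control 4 (0.0775) and without So(d18:1) 2 (0.122).

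**Figure D2:**
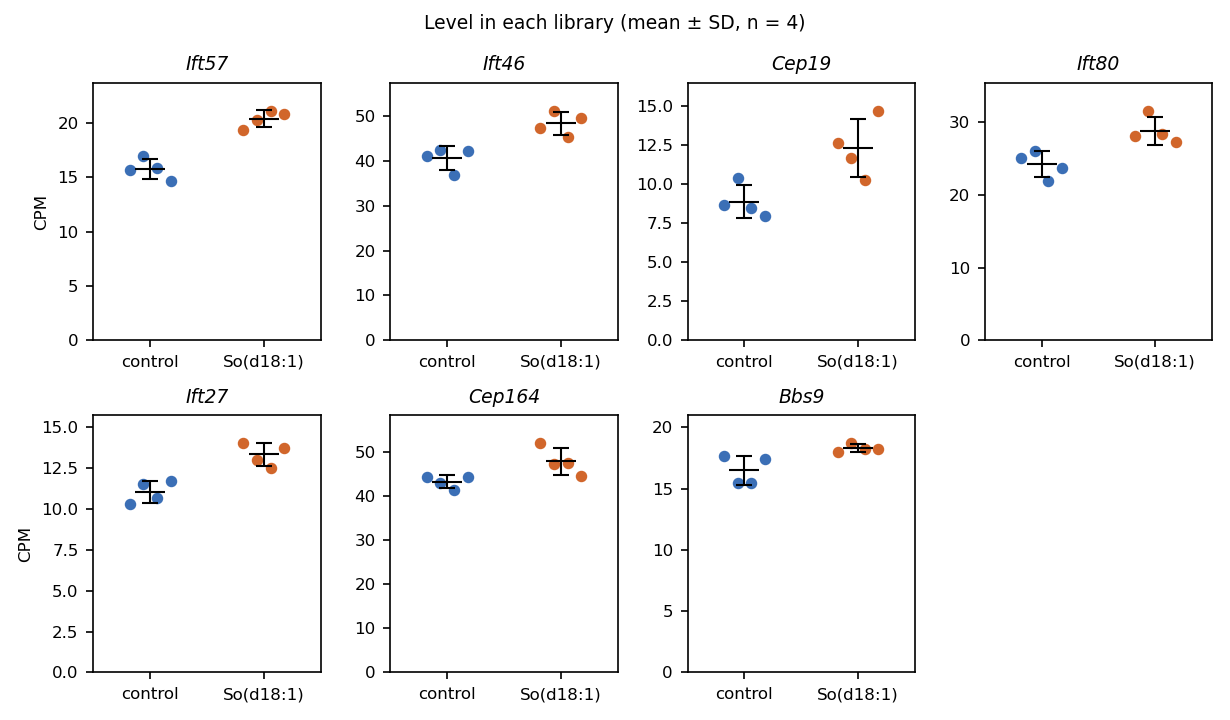
CPM in each of the 4 control and 4 So(d18:1) libraries with mean ± SD, for the 4 called genes (top row) and 3 members that were not called but did not overlap (bottom row), on axes that start at 0. All panels show higher So(d18:1) means, and only Cep19 has overlapping groups.

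Ift27, a small GTPase of the IFT-B complex that helps the BBSome leave the cilium, had 10.3, 11.5, 10.7 and 11.7 CPM in control and 14.1, 13.02, 12.5 and 13.8 CPM in So(d18:1) libraries. The groups did not overlap, but the log2 fold change of 0.27 did not pass the test (adjusted p = 0.0616). Ift81, whose product binds tubulin together with that of Ift74, had a log2 fold change of 0.33 with a wide standard error of 0.18. Ift74 itself had −0.02 with a standard error of 0.086, and neither of the 2 partners of this tubulin-binding module passed. The remaining IFT-B members, Ift88, Ift22, Ift172, Ift52 and Ift20, lay between −0.04 and 0.14 with adjusted p of at least 0.345.

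The retrograde complex, IFT-A, had 3 members by the naming rule. Of these edgeR called none and 1, Ift43, had an unadjusted p under 0.05. Ift43 had 5.24, 5.61, 3.92 and 3.88 CPM in control and 5.77, 8.13, 6.09 and 5.31 CPM in So(d18:1) libraries. The highest value was in So(d18:1) 2 and the groups overlapped (log2 fold change 0.44, standard error 0.16, adjusted p = 0.0891). Ift140 had a log2 fold change of 0.10 and Ift122 of 0.07. The summed level of the 3 members was 68.5 to 75.9 CPM in control and 71.3 to 85.6 CPM in So(d18:1) libraries. Other IFT-A subunits fall outside the naming rule. Wdr19, Wdr35 and Ttc21b had log2 fold changes of 0.25, 0.24 and 0.11 and were not called (edgeR, adjusted p = 0.0787, 0.176 and 0.455). Wdr19 and Wdr35 had an unadjusted p under 0.05.

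The BBSome is represented by 6 of the Bbs genes. Of these, 5 had a positive log2 fold change, edgeR called none, and 1, Bbs2, had an unadjusted p under 0.05. Their sum was 57.5 to 66.2 CPM in control and 66.6 to 71.0 CPM in So(d18:1) libraries, so the ranges lay side by side without overlap. Bbs2, a BBSome core subunit, had 13.7, 13.8, 10.4 and 11.95 CPM in control and 13.7, 14.2, 15.5 and 14.8 CPM in So(d18:1) libraries. Controls 3 and 4 were the low ones, and the groups overlapped (log2 fold change 0.23, adjusted p = 0.156). Bbs9, another core subunit, had 17.7, 15.5, 15.4 and 17.4 CPM in control and 18.0, 18.8, 18.3 and 18.2 CPM in So(d18:1) libraries. Its So(d18:1) values were tight and all above control, by a small margin (log2 fold change 0.15, adjusted p = 0.242). Bbs5 and Bbs4 had log2 fold changes of 0.24 and 0.23, Bbs1 of 0.06 and Bbs7, 1 of the X-box genes, of −0.05. Bbs10 and Bbs12, chaperonin-like proteins that help assemble the BBSome, had 0.29 and −0.01.

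Cep19 had the largest log2 fold change of the called members. Its product sits at the base of the cilium and recruits the IFT-B machinery through a small GTPase. Cep19 (chromosome 16, 32099800 to 32108069) had 8.70, 10.4, 8.51 and 7.96 CPM in control and 12.7, 11.7, 10.3 and 14.7 CPM in So(d18:1) libraries. So(d18:1) 3 lay just under control 2, and the other So(d18:1) libraries were above every control. Cep19 rose by 0.48 ± 0.12 on the log2 scale (edgeR, adjusted p = 0.0114), and without So(d18:1) 4 the call was lost (adjusted p = 0.0616). The other tested members at satellites, the transition zone and the base of the axoneme were not called by edgeR. Cep290, a transition zone protein mutated in several ciliopathies, had −0.01. Cep41, needed for tubulin glutamylation, had the lowest value of all members, −0.27 (adjusted p = 0.273).

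The distal appendages, through which the older centriole docks at the membrane, are represented by Cep89, Cep164 and Cep83. Cep89 had 10.9, 13.2, 10.1 and 10.97 CPM in control and 13.3, 17.3, 13.3 and 13.02 CPM in So(d18:1) libraries. So(d18:1) 2 stood well above the rest, and So(d18:1) 4 fell just short of control 2 (log2 fold change 0.33, adjusted p = 0.0616). Cep164, which recruits the kinase that starts cilium growth, had 44.5, 43.0, 41.4 and 44.3 CPM in control and 52.1, 47.2, 47.6 and 44.6 CPM in So(d18:1) libraries. The groups only just stayed apart (log2 fold change 0.14, adjusted p = 0.125). Cep83 had 0.08.

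Genes of centriole duplication and assembly showed little difference. Of 13 members, 9 had a positive log2 fold change, with a median of 0.041, and 0 had an unadjusted p under 0.05. Cep152 and Cep192, which recruit the duplication kinase Plk4, had 0.12 and 0.02, and Cep97, a partner of the cilium-suppressing protein Ccp110, had 0.22 (adjusted p = 0.227). Cep63, Cep135 and Cep295 had −0.0004, −0.01 and −0.11. The linker genes Cep250 and Cep68, which hold the centrioles together between divisions, had 0.002 and −0.09. Among Cep genes with other or less defined roles, Cep128, a subdistal appendage protein, had a log2 fold change of 0.23 (adjusted p = 0.0928) and Cep170b one of 0.27 (adjusted p = 0.0892).

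Cep55 had the largest difference of all members and the widest error among them. Cep55 works in abscission, the last step of cell division. Its level was 7.21, 6.56, 3.28 and 3.92 CPM in control and 8.91, 14.2, 6.66 and 9.57 CPM in So(d18:1) libraries. So(d18:1) 2 was highest, controls 3 and 4 were lowest, and the groups overlapped between control 1 and So(d18:1) 3. The log2 fold change of 0.92 had a standard error of 0.32 and did not pass the test (edgeR, adjusted p = 0.141). A list of 22 other mitosis genes had summed levels of 561, 622, 423 and 454 CPM in control and 674, 1062, 659 and 734 CPM in So(d18:1) libraries. The same libraries stood highest and lowest as for Cep55. All 22 had positive log2 fold changes, with a median of 0.70. At an unadjusted p under 0.05, 20 were higher (90.9%, against 11.4% of all tested genes). Only 2 (9.09%) were called, against 3.87% called as higher among all tested genes: Aurkb (0.48, adjusted p = 0.0174) and Ect2 (0.71, adjusted p = 0.0181). Aurkb lost its call in 4 of the 8 fits without 1 library (adjusted p of up to 0.0665, without So(d18:1) 2) and Ect2 without So(d18:1) 4 (0.0505). Of 19 S-phase genes 0 were called by edgeR, with 4 at an unadjusted p under 0.05 and a median of 0.042. The part of the mitosis genes in the Cep55 values was not tested.

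**Figure D3:**
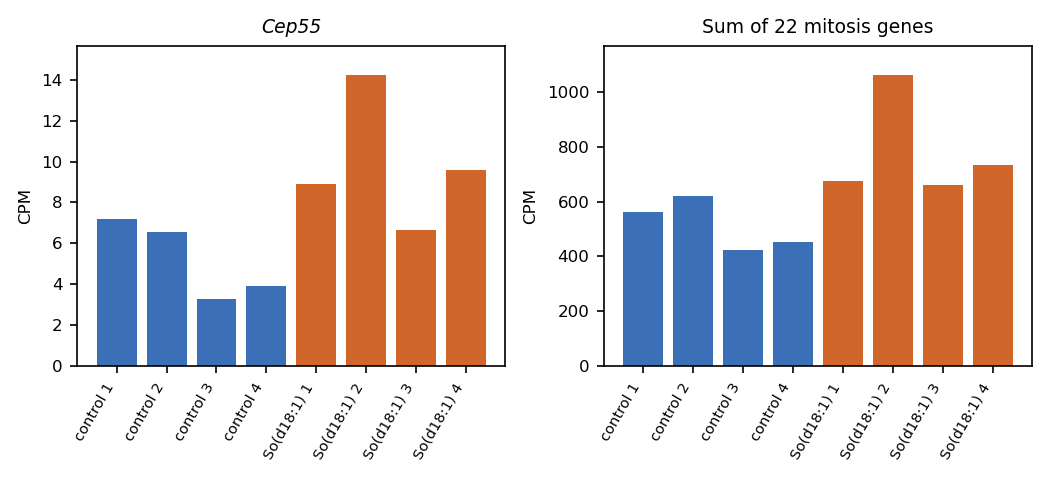
CPM of Cep55 (left) and summed CPM of 22 mitosis genes (right) in each of the 8 libraries, controls in blue and So(d18:1) in orange, with bars from 0. In both panels So(d18:1) 2 is highest, at 14.2 and 1062 CPM, and control 3 is lowest, at 3.28 and 423 CPM.

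The members were expressed at very different levels. Per length, their median was 11.2 TPM, against 16.4 TPM over all tested genes. The highest means over the 8 libraries were those of Cep85 at 93.5, Ift52 at 77.6, Cep350 at 50.2, Ift20 at 41.8 and Cep120 at 36.0 TPM. Cep112 at 0.876, Bbs1 at 2.46, Ift81 at 3.05, Cep72 at 3.56 and Cep41 at 4.27 TPM were the lowest. Of the 55 pairs of neighbours in this order, 50 had overlapping ranges over the libraries. The ranges of Ift52, Cep350, Ift20 and Cep120 were apart from each other, as were those of Cep192 and Cep170 and those of Bbs1 and Cep112. Proteins of 1 complex did not have equal mRNA levels per length. Among the members in IFT-B the highest, Ift52, exceeded the lowest, Ift81, by 25.4-fold. Among those in the BBSome Bbs2 exceeded Bbs1 by 5.77-fold, and among those in IFT-A Ift140 exceeded Ift122 by 2.75-fold. Subunits with other names lay outside these ranges, so they are not those of the whole complexes. Ttc26 of IFT-B was at 0.968, Wdr35 of IFT-A at 4.66 and Bbip1 of the BBSome at 19.0 TPM. The length is that of all annotated exons of a gene (3311 bases for Bbs2, 7674 for Bbs1) and not of the transcripts expressed, and the ratios depend on it.

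**Figure D4:**
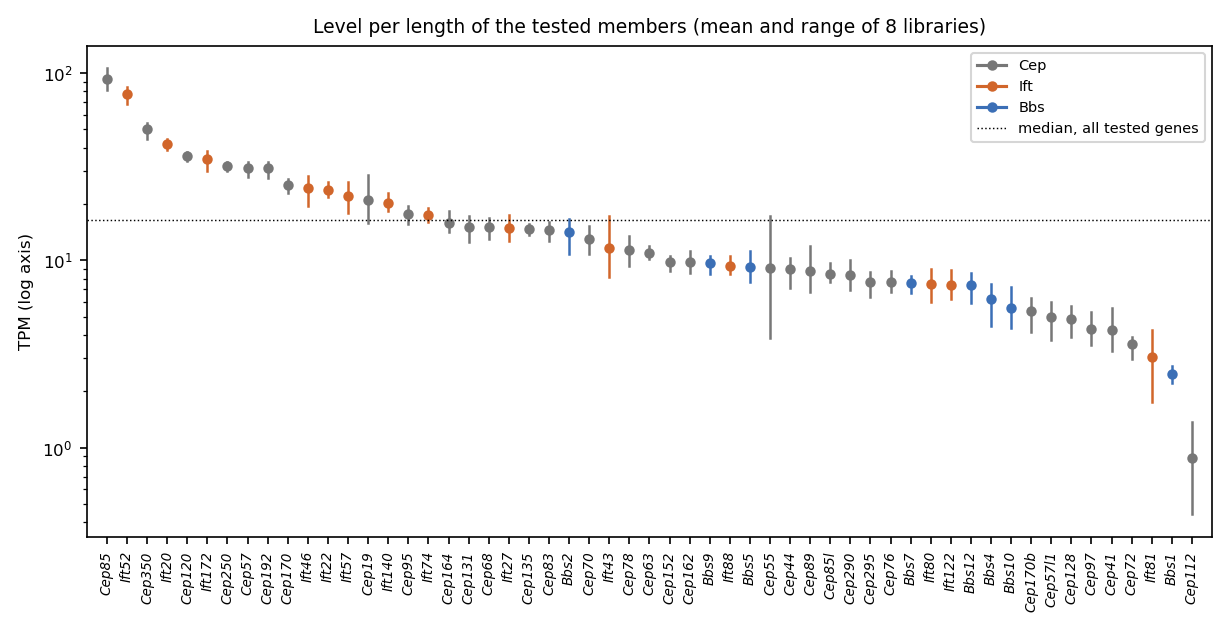
Mean TPM (points, log axis) and range over the 8 libraries (bars) of 55 of the 56 tested members in order of level, coloured by family, with a dotted line at the median of all tested genes, 16.4 TPM. Levels run from 93.5 TPM for Cep85 to 0.876 TPM for Cep112, and Cep55 has one of the widest ranges.

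Replicate spread was like that of other genes. The median coefficient of variation of the members was 7.64% in control and 6.58% in So(d18:1) libraries, against 8.09% and 7.87% over all tested genes, while Cep55 had 36.9% and 32.3%. Among paralogs, the TPM ratio of Cep170 to Cep170b was 5.35 ± 0.447 in control and 4.18 ± 0.360 in So(d18:1) libraries (mean ± SD, n = 4). The ratios ran from 4.93 to 5.79 in control and from 3.88 to 4.69 in So(d18:1) and did not overlap, although neither gene was called. Cep57 to Cep57l1 had ratios of 6.82 ± 1.42 and 5.82 ± 0.246, and Cep85 to Cep85l of 10.7 ± 0.674 and 11.4 ± 0.722, and both pairs overlapped between the groups.

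The 2 members that were not tested had few counts. Cep126 had 5 counts over the control libraries and 12 over the So(d18:1) libraries. Cep295nl had 51 and 24. The tested members had between 17 and 6264 counts per library, so counting error was largest for those such as Cep112. Besides Ift57, more than 5% of the exon bases of Cep295, Cep250, Cep290, Cep85l and Cep70 overlap a gene on the other strand.

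Other genes of the same structures, taken from lists of known function, had medians close to that of the members. Among 24 further IFT and BBS subunits, motors and adaptors, 20 had a positive log2 fold change, with a median of 0.11, and 1 was called: Kifap3 (0.19, adjusted p = 0.0366), the adaptor of the anterograde kinesin. The transition zone and ciliary membrane list had a median of 0.10. In it 7 of 24 tested genes (29.2%) were called, all higher, against 3.87% called as higher among all tested genes. These included the lipid-cargo chaperones Unc119b (0.27, adjusted p = 0.0100) and Unc119 (0.30, adjusted p = 0.0194) and the transition zone genes Rpgrip1l (0.38, adjusted p = 0.0186) and B9d2 (0.37, adjusted p = 0.0223). The others were Tmem231, Ahi1 and Tmem67, which also belong to the transition zone. Rpgrip1l had 7.30, 8.55, 8.04 and 7.83 CPM in control and 10.5, 10.3, 9.62 and 10.7 CPM in So(d18:1) libraries. Its groups did not overlap. With 1 of the 8 libraries left out Kifap3, Tmem231, Ahi1 and Tmem67 lost their calls in 6 fits each, with adjusted p of up to 0.108 (without control 3), 0.0965 (without So(d18:1) 1), 0.0974 (without So(d18:1) 3) and 0.123 (without control 4). Unc119 lost its call in 4 fits (up to 0.0786, without So(d18:1) 4), Rpgrip1l in 3 (up to 0.0589, without control 1) and B9d2 in 2 (0.0741 without control 3 and 0.0887 without So(d18:1) 2), and Unc119b in none.

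Of 48 other centriole and centrosome genes, 2 were called in opposite directions, and 8.94% of all tested genes were called in either direction. The centrosome kinase Nek2 rose by 0.89 (adjusted p = 0.0343) and Tubgcp5, of the microtubule-nucleating γ-tubulin ring, had −0.23 (adjusted p = 0.0112). Plk4 had 0.20 (adjusted p = 0.258) and Ccp110 0.003. In the list of cilium disassembly and tubulin modification 1 of 10 tested genes was called, Tubb4b (0.30, adjusted p = 0.0282), while Aurka and Hdac6, which take cilia apart, had 0.55 (adjusted p = 0.254) and 0.17 (adjusted p = 0.167). Without So(d18:1) 2 the value of Aurka was 0.19. Nek2 and Aurka were both highest in So(d18:1) 2, as were the summed mitosis genes, and the part of the mitosis genes in their values was not tested. Rfx1 and Rfx3, factors that bind the X-box, had 0.083 and 0.16 and did not pass. Rfx2, of the same family, had 0.71 with a standard error of 0.26 (edgeR, unadjusted p = 0.012, adjusted p = 0.0930). Rfx2 was not called but passed the threshold in the study's methods, with a 1.63-fold change. Its groups overlapped, and its level was low, at 0.817 to 2.02 CPM over the 8 libraries. None of the 6 tested regulators was called by edgeR, and only Rfx2 had an unadjusted p under 0.05. Of 12 Hedgehog genes 4 were tested, and Ptch1, the Hedgehog receptor, rose from 16.2 ± 1.01 to 20.2 ± 0.280 CPM (log2 fold change 0.32, adjusted p = 0.0084). With 1 library left out Ptch1 and Tubgcp5 kept their calls, whereas Nek2 lost its call in 4 fits (adjusted p of up to 0.108, without control 3) and Tubb4b in 5 (up to 0.108, without So(d18:1) 2). Gli1, a usual readout of the pathway, had too few counts to test (24 in control and 19 in So(d18:1) libraries).

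**Figure D5:**
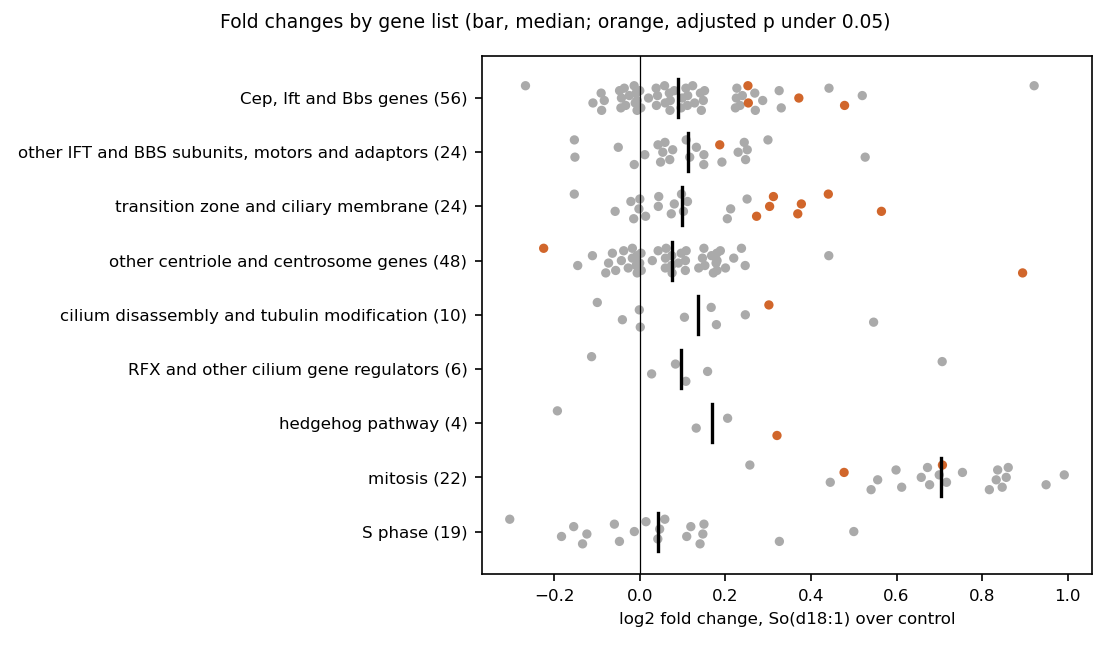
Log2 fold change of So(d18:1) over control for the members and for 8 lists of related genes, each point a tested gene, orange for an adjusted p under 0.05 and a black bar for the median. List medians lie between 0.042 and 0.17 except for the mitosis genes at 0.70, and orange points are most frequent in the transition zone list (7 of 24).

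The libraries held 17748397 to 26088609 counts. Macrophage markers were abundant in all of them (7 genes, summed 30090 to 32380 CPM in control and 25980 to 30830 in So(d18:1) libraries), and 6 of the 7 had negative log2 fold changes. Mertk (−0.38, adjusted p = 6.19e-06) and Cd68 (−0.22, adjusted p = 0.0035) fell and Itgam (0.18, adjusted p = 0.0119) rose. Neutrophil markers also moved with the groups: all 7 had negative log2 fold changes and 4 were called (8.94% of all tested genes were called in either direction). Their sums were 1092 to 1498 CPM in control and 848 to 956 CPM in So(d18:1) libraries. B cell markers summed to 2.62 to 4.0 and 0.904 to 2.47 CPM, and T cell markers, almost wholly Cd4, which fell (−0.42, adjusted p = 0.0087), to 20.4 to 25.4 and 13.6 to 18.8 CPM. Dendritic cell markers summed to 2.47 to 3.82 and 3.95 to 4.43 CPM, and fibroblast markers to 6.52 to 9.14 and 5.62 to 7.59 CPM. The part of these cell types in the values of the members was not tested. Markers of multiciliated cells, in which many members are abundant, summed to 8.90 to 10.9 and 8.53 to 11.1 CPM, nearly all from Ccdc39. The defining genes Foxj1 and Tekt1 had 0 counts over the control libraries and 1 each over the So(d18:1) libraries, and Dnah5 was at 0 in all 8 libraries.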

How the data were processed

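RNA-seq was read from 1 table of 8 libraries. Per the labels and the study's methods the authors used Trim Galore 0.6.7 for trimming, HISAT2 2.2.1 for alignment to mm10 and featureCounts 2.0.1 for quantification. The deposited values are raw counts per gene. Strand and multi-mapping settings are not given in the sources used here, so overlapping genes are uncertain. Counts were matched to GENCODE M21 symbols (52081 of 55357 genes), filtered by filterByExpr, scaled by TMM (factors 0.989 to 1.01) and tested in R 4.3.3 with edgeR 4.0.16 (quasi-likelihood F test, robust, no covariate). The standard error is the log2 fold change over the square root of F. TPM used the gene lengths in the table. Fits with limma 3.58.1 and DESeq2 1.42.0, other scalings and filters, the replicate number as a block and each library left out were alternatives. The fit was first tested on simulated data. Figures used matplotlib 3.10.9.

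The members and lists were chosen with earlier results of these data known. The text names members with an adjusted p under 0.05, the 12 with the smallest p, the 5 highest and 5 lowest by TPM, 3 paralog pairs, up to 4 called genes per list and 7 genes of known steps (Ccp110, Plk4, Rfx1, Rfx3, Gli1, Hdac6 and Aurka). Other names were chosen after their values were seen. A member is not reported here by name or in the figures, but is included in the counts. Promoter sequences are from RefSeq (GRCm38.p6, the mm10 assembly). Over all tested genes, same-numbered libraries did not deviate together (correlations −0.0035, 0.100, 0.033 and 0.0091), so the numbers were not taken as pairs. The summed mitosis genes were nevertheless highest in library 2 and lowest in library 3 of both groups. Cep55 was also lowest in library 3 of both groups. Libraries of a group differed by more than sampling noise (chi-square per gene 2.75 to 12.1), and each was taken as 1 replicate. This spread cannot show whether they come from separate mice. The common biological coefficient of variation was 0.0657, and the tested members had a median of 402.8 counts per library.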

Additional observations from a re-analysis of the deposited data

Results flagged for a closer look

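Of 154 groups of 4 libraries examined, 12 held 1 library apart from the other 3 by Dixon's ratio of gap to range, at its 95% critical value, and chance alone flags about 1 in 20. In So(d18:1) libraries, Cep89 was high in So(d18:1) 2 (log2 CPM 4.12, the others 3.71 to 3.74, ratio 0.933). Ift74 was low in the same library (3.61, ratio 0.86), and B9d2 was high in it (3.77, ratio 0.876). Nek2 (3.38, ratio 0.844) and Aurka (3.93, ratio 0.894) were also high there. Cep170 was low in So(d18:1) 4 (6.93, ratio 0.876), and Cep68 was low in So(d18:1) 3 (ratio 0.904). In control libraries, Cep152 (4.11, ratio 0.884) and Nek2 (2.47, ratio 0.885) were high in control 2. Cep57 was low in control 4 (5.08, ratio 0.952), Cep78 was low in control 1 (3.05, ratio 0.911) and Bbs7 was low in control 3 (3.50, ratio 0.871). None of these 12 genes and groups includes a called member.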

How the results depend on the processing

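Ift57 and Ift46 were called in each of the 16 alternative fits, and the 4 called members kept their direction in all of them. DESeq2's size factors, upper quartile scaling, library size alone, at least 10 counts in every library, the Wald test of DESeq2 and limma-voom each called the same 4 members. Without a filter on low counts 6 members were called, with Cep89 and Ift43 added. The replicate number as a block gave 8 called members, adding Cep89 (adjusted p 0.0171), Ift43 (0.0285), Cep128 (0.0434) and Cep55 (6.58e-05), and 1784 genes in all. Over all tested genes the numbers do not pair the libraries, but Cep55 and the summed mitosis genes were lowest in library 3 of both groups. Only 1 of the 4 control libraries correlated best with the So(d18:1) library of its own number. With 1 library left out, 3 to 7 members were called (7 without control 2, 3 without control 3, control 4, So(d18:1) 2 or So(d18:1) 4), 0 to 2 passed the threshold of the study, the median of the members was 0.047 to 0.11, and 815 (without So(d18:1) 2) to 1370 genes were called in all. Among the other genes, upper quartile scaling lost Kifap3 (adjusted p 0.0535) and Tmem67 (0.0559), and limma-voom lost Tmem231 (0.0502). Aurka was called without the filter (0.0128) and with the replicate block (0.0353).

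Among all tested members and the named genes followed in the alternative fits, signs turned only where the log2 fold change lay between −0.04 and 0.07, and the cause was not tested. Rfx2 was not among the genes followed. Cep250 was −0.00024 with DESeq2's size factors, −0.010 with upper quartile scaling, −0.0040 with at least 10 counts and −0.00054 by the Wald test. Cep63 was 0.0062 with library size alone, 0.0039 without the filter and 0.0022 by limma-voom. Bbs12 was 0.0097 by limma-voom. Ccp110 was −0.0091 with upper quartile scaling, −0.0030 with at least 10 counts, −0.0073 by limma-voom and −0.0042 with the replicate block. With 1 library left out the ranges that cross 0 were −0.0083 to 0.15 for Ift122, −0.011 to 0.092 for Ift172, −0.11 to 0.032 for Cep70, −0.079 to 0.026 for Cep85l, −0.11 to 0.029 for Cep131, −0.022 to 0.062 for Cep192, −0.035 to 0.12 for Cep76, −0.054 to 0.014 for Ift74, −0.037 to 0.011 for Cep135, −0.084 to 0.082 for Cep290, −0.053 to 0.030 for Ift52, −0.050 to 0.036 for Cep95, −0.090 to 0.071 for Bbs12, −0.012 to 0.030 for Cep250, −0.040 to 0.027 for Cep63 and −0.078 to 0.072 for Ccp110. The number of libraries limits the precision, and so do low counts in members such as Cep112.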
